A study of Bos taurus with 14 samples.

Results

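miR-21 is 1 hairpin precursor from which a pair of mature miRNAs can be cut, bta-miR-21-5p from the 5′ arm and bta-miR-21-3p from the 3′ arm. Both were taken by name from the deposited table, where they are 2 of 1030 mature miRNAs, each listed once. The libraries came from peripheral white blood cells (PWBC) of Angus-Simmental crossbred heifers, bled at weaning and sequenced as 1 small RNA library per heifer. The fertile heifers (FH, n = 7) later became pregnant to artificial insemination (AI), and the subfertile heifers (SFH, n = 7) did not become pregnant, neither to AI nor to the bulls that followed. All 14 went through the same synchronization and breeding programme, and were chosen for comparable age and weight. The outcome was recorded long after the blood was drawn, so the groups describe what later happened to animals that had not yet been bred.

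miR-21 is among the most studied miRNAs of activated immune cells. Its gene is transcribed with the help of AP-1 and STAT3, the hairpin is cut by Drosha and then by Dicer, and the strand kept in Argonaute guides the repression of messenger RNAs such as that of *PDCD4*, an inhibitor of translation. In most tissues the 5p strand is the guide, and the 3p strand, also called miR-21*, is largely degraded. RefSeq places the cattle miR-21 gene between *VMP1* and *TUBD1* on ARS-UCD2.0, a later assembly than the one the reads were aligned to, with no annotated gene overlapping it.

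In these leukocytes miR-21 was read almost entirely as the 5p strand. Over the 14 heifers, 2459995 counts fell on bta-miR-21-5p and 62 on bta-miR-21-3p. The 5p strand made up 5.72% of all mature miRNA counts and ranked 4th by total count, whereas the 3p strand ranked 410th. The level of 5p differed 3.25-fold between the lowest and the highest heifer, with FH and SFH heifers mixed along that range. No difference between the groups was detected for either strand or for their ratio. The total per heifer was 1754971 to 5468341 counts, so a miRNA without a count could still have had up to 3, or 0.549 to 1.71 counts per 1000000 counts (CPM). Such limits, and the intervals given for shares, cover counting error only, since no step that removes PCR copies is stated. Throughout, ± gives the SD over the heifers of a group, with n = 7 in FH and n = 7 in SFH, each heifer a separate animal.

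The sampled cells carried the miRNA markers of leukocytes. bta-miR-142-5p, made in all blood cell lineages, reached 10591 ± 3418 CPM (FH) and 13892 ± 5211 CPM (SFH) after TMM normalization. bta-miR-150 of mature lymphocytes had 67417 ± 17627 and 63984 ± 21977 CPM, and bta-miR-223 of neutrophils and monocytes had 16974 ± 4833 and 19812 ± 4513 CPM in FH and SFH. Red cells were also represented, as bta-miR-451 reached 841 to 7150 CPM, while bta-miR-144, cut from the same primary transcript, had no count in any heifer. In such a mixture, fewer cells of a type and less of the miRNA per cell cannot be told apart.

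bta-miR-21-5p, the guide strand, took 2.70% of the mature miRNA counts in the lowest FH heifer (heifer 25), 5.30% in the median one (heifer 22) and 7.84% in the highest (heifer 27). In SFH the lowest share was 3.93% (heifer 26), the median 6.23% (heifer 23) and the highest 8.79% (heifer 32). The ranges overlapped over most of their length. Only heifer 32 lay above every FH heifer, and FH heifers 20 (3.62%) and 25 lay below every SFH heifer. The mean share was 5.34 ± 1.84% in FH and 6.28 ± 1.65% in SFH, a difference of 0.94 percentage points that was smaller than the SD of either group (p = 0.330 in an exact two-sided permutation test). It was 0.502 percentage points without FH heifer 25, 0.522 without SFH heifer 32 and 1.36 without FH heifer 27. Above the FH median lay 5 of 7 SFH heifers.

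Counting error was small beside the range of the shares. With 81657 to 428568 counts on 5p per heifer, the exact binomial 95% interval of the share was at most 0.041 percentage points to either side. When the 14 heifers were ordered by share, 12 of the 13 pairs of neighbours had intervals apart. The exception was FH heifer 22 (5.27 to 5.33%) and SFH heifer 30 (5.33 to 5.37%). With 1 library per heifer, differences between animals and between library preparations cannot be told apart.

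**Figure D1:**
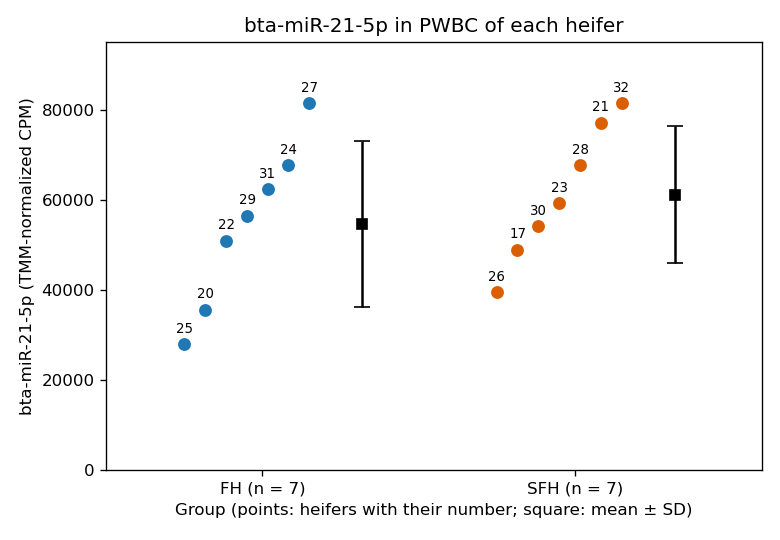
bta-miR-21-5p in TMM-normalized CPM (y axis, from 0) for each heifer, with the heifer number above its point, and the mean ± SD of each group as a black square with bars (n = 7 per group). The FH heifers run from 27897 to 81435 CPM and the SFH heifers from 39491 to 81492 CPM, so the groups overlap and end at nearly the same highest value.

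The place of bta-miR-21-5p among the miRNAs of a library moved as well. It was the second most abundant miRNA (rank 2) in 6 heifers, FH heifers 24 and 27 and SFH heifers 21, 23, 28 and 32. It fell to rank 8 in FH heifer 29 and SFH heifer 26, to rank 9 in FH heifer 20 and to rank 11 in FH heifer 25. bta-miR-26a (10.6% of all counts), bta-let-7a-5p (6.93%) and bta-miR-150 (6.44%) were above it by total count, and bta-let-7f (5.69%) came next. Reads were counted on whole mature miRNAs, so no length enters these levels. Some names carry identical counts, and adapter ligation differs between sequences, so levels of different miRNAs are comparable only roughly.

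After TMM normalization, which scales the libraries to each other, the level of bta-miR-21-5p was 54630 ± 18439 CPM (FH) and 61149 ± 15171 CPM (SFH). The log2 fold change (SFH relative to FH) was 0.16 with a standard error of 0.21 and a 95% interval from −0.28 to 0.61. In edgeR's quasi-likelihood test its p, adjusted by Benjamini-Hochberg over 341 miRNAs, was 0.947. The mean log2 level differed by 0.20 (p = 0.425, exact two-sided permutation). The interval leaves room for a change past the fold change threshold of 0.5 in the upward direction. By its p-value bta-miR-21-5p ranked 157th of the 341 miRNAs, and 247 had a larger absolute log2 fold change. For reference, 13 of the 341 passed an unadjusted p of 0.05 together with that fold change threshold, which is 3.81%, with 5 higher in SFH (1.47%) and 8 lower (2.35%). bta-miR-21-5p was not among them. After adjustment edgeR gave 0 calls, 0% of the 341, against 20 (5.87%) at an unadjusted p of 0.05, while DESeq2 gave 2 and limma-voom 0 adjusted calls.

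The estimate moved with single heifers. It was 0.05 without FH heifer 25, the lowest of all, and 0.29 without FH heifer 27, the highest of its group.

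Within-library ratios need no scaling factor, and 5 of them were computed after the values had been seen. Relative to bta-miR-150, bta-miR-21-5p stood at a ratio of 0.908 ± 0.549 in FH and 1.13 ± 0.640 in SFH. Relative to bta-miR-223 the ratio was 3.65 ± 1.98 in FH and 3.36 ± 1.54 in SFH, and relative to bta-miR-142-5p it was 5.42 ± 1.87 and 5.26 ± 3.07. The log2 differences (SFH minus FH) were 0.31, −0.04 and −0.17, so the sign depended on the miRNA taken as reference. Relative to bta-let-7a-5p the ratio was 0.761 ± 0.399 in FH and 1.10 ± 0.335 in SFH, a log2 difference of 0.65, with 6 of 7 SFH heifers above the FH median. Its exact two-sided permutation p was 0.0892, or 0.446 after Benjamini-Hochberg adjustment over the 5 ratios. bta-let-7a-5p itself had a log2 fold change of −0.49 (95% interval −0.83 to −0.15), with an edgeR p adjusted over 341 miRNAs of 0.415, beside 0.16 for bta-miR-21-5p. The ratio to bta-miR-26a gave a log2 difference of 0.25 (exact two-sided permutation test, p = 0.263).

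bta-miR-21-5p was one of the more variable of the abundant miRNAs. Over the 14 heifers its log2 level had an SD of 0.46, and the level ranged 2.92-fold after TMM normalization. Among the 20 most abundant miRNAs only bta-miR-142-5p (SD 0.54) and bta-miR-27b (SD 0.48) varied more, and the median of the 20 was 0.30. Close below it came bta-miR-150 with an SD of 0.45. bta-miR-26a, the most abundant, had an SD of 0.17. Across all 341 miRNAs the median SD was 0.92, since miRNAs with few counts vary most, and 22.9% varied less than bta-miR-21-5p.

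**Figure D2:**
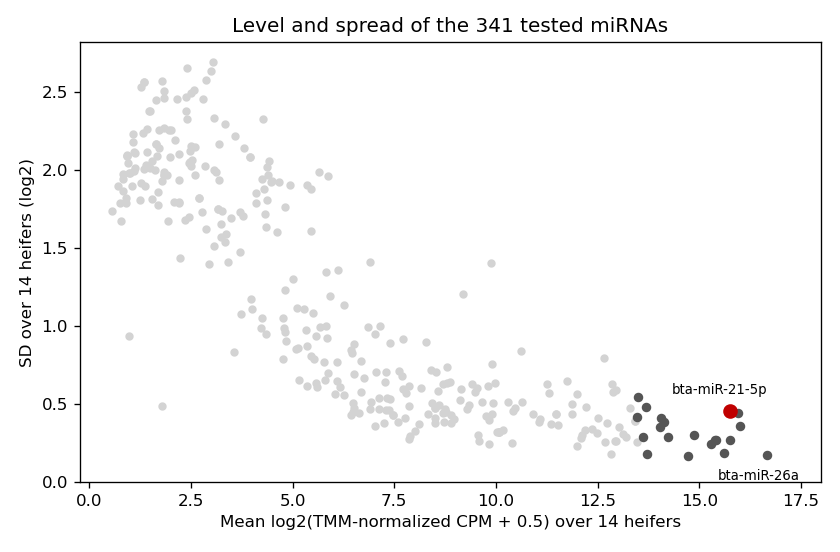
Mean log2(TMM-normalized CPM + 0.5) over 14 heifers (x axis) against its SD over the same heifers (y axis, log2 units) for the 341 tested miRNAs, with the 20 most abundant in dark grey and bta-miR-21-5p in red. The spread falls with the level, and bta-miR-21-5p, with an SD of 0.46, lies in the upper part of the abundant miRNAs, well above bta-miR-26a with 0.17.

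Whether heifers of 1 group varied more than those of the other was tested separately. The SD of the log2 level of bta-miR-21-5p was 0.54 in FH and 0.37 in SFH. The log2 ratio of the SDs, −0.54, was not distinguishable from 0 (exact two-sided permutation test on values centred on their group means, p = 0.385, n = 7 per group). FH heifer 25 carried most of it, as the ratio was −0.13 without this animal. No correlation of bta-miR-21-5p with the size of the library was detected, with r = −0.08 (permutation p = 0.780) and rho = −0.01 (permutation p = 0.976) against the log2 total count over 14 heifers, r = 0.01 within FH and r = −0.16 within SFH. Without the 2 heifers farthest from the median total, r was −0.01.

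bta-miR-21-3p, the passenger strand, had no count in 10 of the 14 heifers. It had 33 counts in FH heifer 27, 18 in SFH heifer 32, 9 in SFH heifer 28 and 2 in SFH heifer 26. The other 6 FH heifers and the other 4 SFH heifers were at 0. Heifers 27 and 32 also had the highest 5p level of their group, but heifer 26 had the lowest 5p level of SFH. Per 1000000 mature counts, the strand reached 6.03 in heifer 27 and 9.83 in heifer 32. It therefore did not reach the filter of 1 CPM in 7 heifers, is not in the deposited CPM table and was not part of the test over 341 miRNAs. Summed by group, there were 33 counts in FH and 29 in SFH.

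A test of so few counts can show little. The mean log2(TMM-normalized CPM + 0.5) of bta-miR-21-3p stood at −0.46 ± 1.42 (FH) and 0.20 ± 1.71 (SFH), with p = 0.437 in an exact two-sided permutation test. The difference of 0.66 became 0.15 without SFH heifer 32 and 1.2 without FH heifer 27. When all 614 miRNAs with a count were fitted, edgeR's quasi-likelihood test gave a log2 fold change of 0.98. Its approximate 95% interval was −3.19 to 5.16, and the adjusted p (Benjamini-Hochberg) of this edgeR test was 0.915. As share of the mature counts SFH was higher by 1.07 counts per 1000000 (p = 0.584 in an exact two-sided permutation test). This direction rested on SFH heifer 32, without which SFH was the lower group.

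The low count is not unusual in how it was spread over the animals. Of the other miRNAs, 110 had a total between 31 and 124 counts, from 2-fold below to 2-fold above that of bta-miR-21-3p. They were found in a median of 4 heifers (1 to 14), as bta-miR-21-3p was, and 11 of them had all their counts in a single heifer. In the median case 51.4% of the counts came from the top heifer, against 53.2% for bta-miR-21-3p. This comparison was chosen after the values had been seen.

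**Figure D3:**
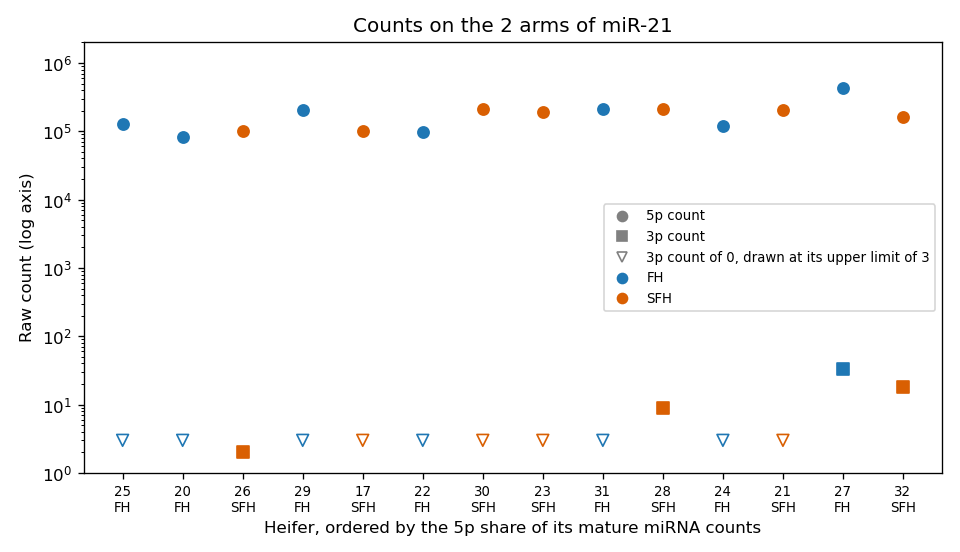
Raw counts on a log axis for bta-miR-21-5p (circles) and bta-miR-21-3p (squares) in each heifer, ordered from left to right by the 5p share of the mature counts, with FH in blue and SFH in orange. Open triangles mark heifers with a 3p count of 0, drawn at the upper limit of 3 that a count of 0 allows. The 5p counts run from 81657 to 428568, whereas 4 heifers have a 3p count, of 2 to 33.

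5p far exceeded 3p in every library. In the 4 heifers with a 3p count, 8951 (heifer 32), 12987 (heifer 27), 23207 (heifer 28) and 51125 (heifer 26) reads of 5p were found for each read of 3p. For heifer 26, with 2 counts on 3p, the exact binomial 95% interval of this ratio was 14152 to 422161. In the other 10 heifers the ratio was at least 27219 to 71273, taking 3 counts as the upper limit of 3p. As a share of both strands over all heifers, 3p made up 25.2 reads per 1000000 (exact binomial 95% interval 19.3 to 32.3), with 25.8 (17.8 to 36.3) in FH and 24.5 (16.4 to 35.2) in SFH when the reads of a group are pooled. Pooling treats 7 animals as 1, and every FH count is from heifer 27. Taken per heifer, the share was 11 ± 29.1 per 1000000 in FH and 24.9 ± 41.6 in SFH.

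Part of the heifers differed in this share by more than counting error. At the pooled rate of 25.2 per 1000000, 4.86 to 5.39 counts on 3p would have been found in each of FH heifers 29 and 31 and SFH heifers 21, 23 and 30, which all had 0. Their upper limits (14.0 to 15.6 per 1000000) lay below the lower limits of heifers 28 (19.7), 27 (53.0) and 32 (66.2). The other 5 heifers at 0 had upper limits of 23.5 to 36.7 per 1000000 and 2.06 to 3.22 counts at the pooled rate. These limits lay above the lower limit of heifer 28, and single heifers were not tested against each other. Copies of a few molecules made by PCR would widen these intervals, and their part was not tested.

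Between the groups, the log2 ratio of 5p to 3p counts, with 0.5 added to each, was 17.39 ± 1.73 in FH and 16.62 ± 2.31 in SFH. The difference of −0.77 was smaller than either SD (p = 0.509 in an exact two-sided permutation test). In the 10 heifers without a 3p count this value (17.32 to 18.71) is set by the 5p count and the number added, and it lies above the bound of 14.73 to 16.12 that an upper limit of 3 counts gives. In limma's test over 32 strand pairs, the 95% interval of the difference was −3.01 to 1.47 and the adjusted p (Benjamini-Hochberg) was 0.664. Of the 32 pairs, limma called 0 after adjustment, and 1, or 3.12%, had an unadjusted p of at most 0.05.

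The levels of the strands were compared across heifers, although the 3p values rest on 4 animals. Pearson's r was 0.50 (permutation p = 0.0677) and Spearman's rho 0.52 (permutation p = 0.0585) over 14 heifers, with a Benjamini-Hochberg adjusted p of 0.271 for r in a family of 4 correlations. Without FH heifers 20 and 25, the farthest from the median of 5p, r was 0.51. Within SFH r was 0.43 (exact permutation p = 0.329, n = 7). Within FH, where heifer 27 alone has a 3p count, r was 0.54 and only gives the place of that animal. Heifers 32 and 27 moved the value down most when left out, to 0.38 and 0.39, and leaving out SFH heifer 21 or 26 raised it to 0.58 (permutation p = 0.0394) or 0.55 (permutation p = 0.0408). The remaining correlations of the family were those with the log2 total count, r = 0.07 (permutation p = 0.804; rho = 0.03, permutation p = 0.921) for 3p and r = 0.06 (permutation p = 0.836; rho = 0.33, permutation p = 0.247) for the strand ratio. Without the 2 heifers farthest from the median total they were −0.22 and 0.38.

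miR-21 was set beside the other precursors with both strands named in the table. Of 83 such pairs, 31 had both strands past the filter, which miR-21 itself had not. The median log2 ratio of 5p to 3p was at least 15.34 in miR-21, with counts of 0 taken as 3, and 9.21 in let-7a, 6.92 in miR-362 and 6.74 in miR-17, the next of the 31 in the direction of 5p. Among the 51 other pairs outside the filter, miR-99a had a median of 11.38, with counts of its minor strand in 6 heifers. With miR-21 among them, 9 pairs had at least 100000 counts on the major strand. Per 1000000 reads of both strands, the minor strand had 537 in miR-23b, whose counts are the same as those listed for miR-10174, 1586 in let-7a and 11597 in miR-142. miR-151 and miR-423 used both strands, with 361357 and 465616 reads per 1000000 on the minor one. For miR-21 the corresponding value was 25.2. Of all 50 other pairs with a count on the minor strand, miR-6120 (202) and miR-1343 (296) came nearest, from 2 and 7 counts in 1 heifer each. No interval was computed for them, and the 2 counts of miR-6120 are too few to place it firmly above miR-21. A further 15 pairs had no count on the minor strand, miR-2284h among them, but their depth allows 1442 per 1000000 or more, so they could not be ordered against miR-21. The 5p total divided by the 3p total was 39677 in miR-21 and 630 in let-7a, which has 2983304 counts on 5p, a 63.0-fold difference. The strands of a pair differ in sequence, so adapter ligation enters such ratios as well, and its part was not tested. These other pairs were named after their values were seen. miRNAs with a single name, bta-miR-26a and bta-miR-223 among them, could not be placed in this order.

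**Figure D4:**
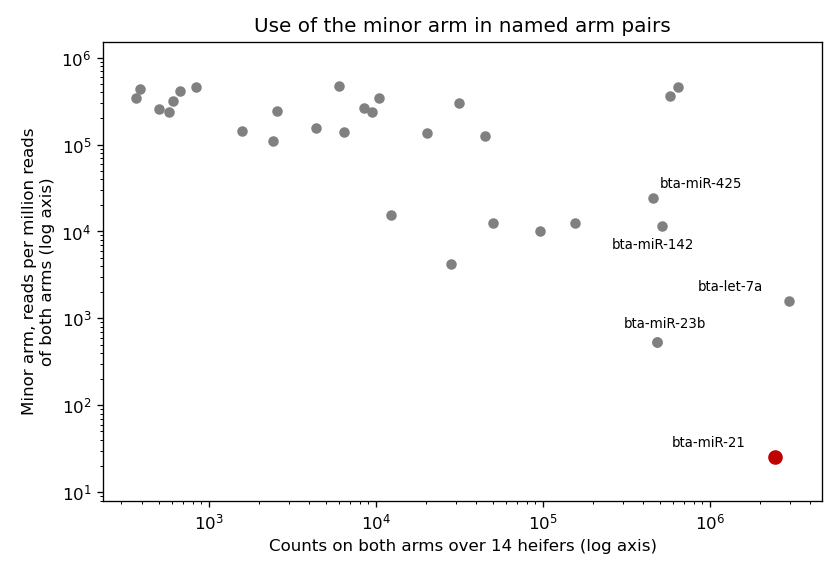
Counts on both strands over 14 heifers (x axis, log) against the reads of the minor strand per 1000000 reads of both strands (y axis, log) for the 31 pairs with both strands past the filter and for miR-21 (red). miR-21 lies lowest with 25.2 per 1000000, below miR-23b with 537 and let-7a with 1586, and the miR-23b point also stands for miR-10174.

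The miRNAs whose log2 levels were most like that of bta-miR-21-5p over the 14 heifers were bta-miR-30e-5p (r = 0.81, rho = 0.66), bta-miR-146b (r = 0.81, rho = 0.70), bta-miR-660 (r = 0.79, rho = 0.67), bta-miR-101 (r = 0.78, rho = 0.80) and bta-miR-2285k (r = 0.78, rho = 0.73). They were the highest of 340 values of r, whose median was 0.08, so they are a description and carry no test. All values of a heifer come from 1 library and 1 scaling factor. Within FH the 5 values of r lay between 0.83 and 0.94, and within SFH between 0.43 and 0.72. bta-miR-30e-5p was also first for bta-miR-21-3p (r = 0.61, rho = 0.65), followed by bta-miR-2285p (r = 0.58), bta-miR-186 (r = 0.57), bta-miR-11991 (r = 0.56) and bta-let-7i (r = 0.54), but with 10 heifers at 0 these are weak descriptions.

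Other miRNAs induced in stimulated leukocytes were read in the same fit. Of 7 listed, 6 were tested and 0 passed the thresholds, where 3.81% of all 341 did, too small a share for a count over 6 to show anything. There were 4 log2 fold changes above and 2 below 0, with a median of 0.32, where the median of all 341 miRNAs was 0.06. bta-miR-155, which is needed for germinal centre responses, reached 8742 ± 1401 CPM (FH) and 7376 ± 1200 CPM (SFH), with a log2 fold change of −0.25 (95% interval −0.56 to 0.07). bta-miR-146a and bta-miR-146b, which dampen Toll-like receptor signalling, had log2 fold changes of 0.17 (−0.41 to 0.76) and 0.49 (−0.39 to 1.37). Over 14 heifers the level of bta-miR-146a had r = 0.76 and rho = 0.56 to bta-miR-21-5p, with r = 0.88 within FH and 0.39 within SFH. For bta-miR-155 r was 0.04 over 14 heifers, 0.68 within FH and −0.58 within SFH. Other miRNAs also had opposite signs in the groups, and the values within a group, from 7 heifers, carry no test. bta-miR-132 had the largest value of the list, 0.86 (−0.15 to 1.87). bta-miR-147 had 0.46 (−1.95 to 2.87) and bta-miR-9-5p −0.36 (−1.26 to 0.54), and bta-miR-212 had counts in 7 heifers and was not tested.

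Of the markers of cell types in blood, 11 were tested in the same fit and 0 passed the thresholds, a count that the share of 3.81% over all miRNAs leaves uninformative. The lymphocyte list had 4 of 4 members tested and a median log2 fold change of 0.12, with 2 values above and 2 below 0. They were −0.08 (bta-miR-150), −0.14 (bta-miR-342), 0.33 (bta-miR-181a) and 0.32 (bta-miR-181b). The summed level of this list was 67122 to 123813 CPM in FH and 59727 to 136719 CPM in SFH. The pair from the miR-142 precursor had log2 fold changes of 0.39 (bta-miR-142-5p) and −0.15 (bta-miR-142-3p), and its summed level was 5404 to 17063 CPM in FH and 7990 to 20721 CPM in SFH. bta-miR-223, the myeloid marker, had 0.22 and ranged from 11535 to 23351 CPM in FH and from 14396 to 25366 CPM in SFH. The erythroid list had 2 of 3 members tested, bta-miR-451 with 0.72 and bta-miR-486 with −0.05 (median 0.34). Its summed level was 1552 to 3592 CPM in FH and 1470 to 9345 CPM in SFH. The platelet and endothelial pair had a median of −0.91 at a summed level of 23.1 to 67.3 CPM in FH and 4.30 to 46.9 CPM in SFH. Of 7 miRNAs of liver, muscle and epithelium, 3 were tested (median −0.12), and their sum was 1185 to 4851 CPM in FH and 1959 to 4450 CPM in SFH, nearly all from bta-miR-375. The part of cell composition in the level of bta-miR-21-5p was not tested.

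**Figure D5:**
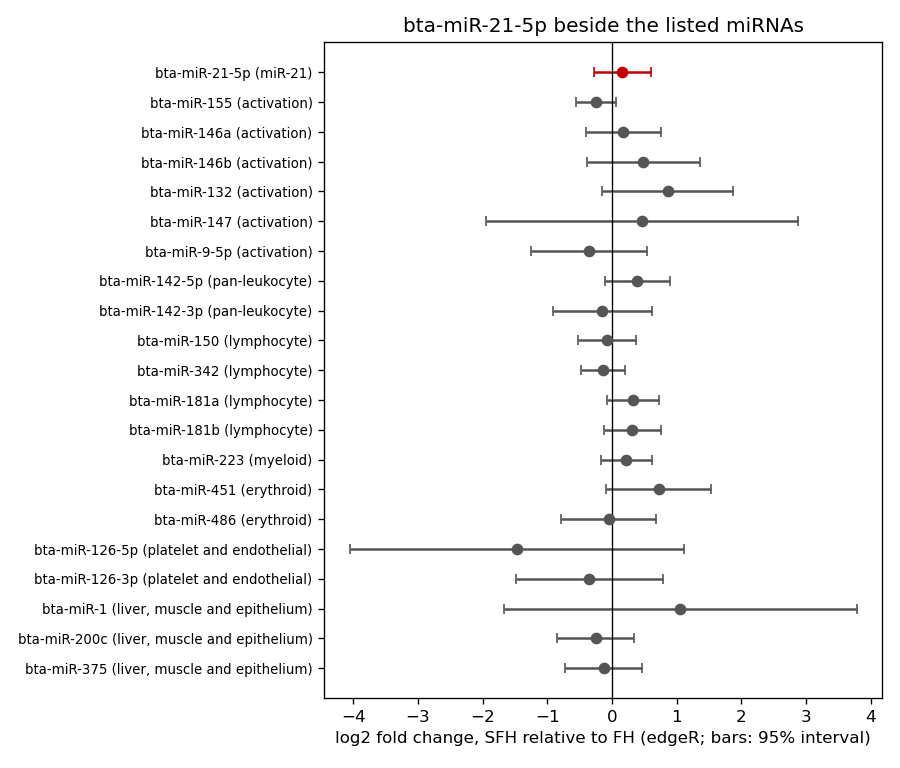
Log2 fold change (SFH relative to FH, x axis) with its 95% interval, approximated from the edgeR fit. bta-miR-21-5p is in red and the tested members of the leukocyte activation and cell type lists are in grey (list in brackets). The interval of bta-miR-21-5p, from −0.28 to 0.61, spans 0, as do those of the other miRNAs drawn.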

How the data were processed

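Small RNA of PWBC from 14 heifers was sequenced with 1 library per heifer. The authors trimmed adapters and end bases with Cutadapt, counted reads with miRDeep2 on ARS-UCD1.2 and miRBase, and deposited the raw counts of each mature miRNA by precursor entry. The deposited CPM cover 341 miRNAs and equal the counts divided by the total over those miRNAs. A name with several precursor entries was represented by the entry with the highest total. The 341 miRNAs that reached 1 CPM in 7 or more heifers were tested with TMM factors and the quasi-likelihood test of edgeR 4.0.16 in R 4.3.3, with group as the only term, and Benjamini-Hochberg adjustment over all 341. bta-miR-21-3p did not reach it, so its level was compared by permutation. Single values were compared over all 3432 arrangements of the heifers, where the smallest possible p is 0.000583, on log2(CPM + 0.5) for levels. Correlations used 100000 resamples. DESeq2 1.42.0 and limma 3.58.1 served as alternatives. Of the tests, only the edgeR fit was tried on simulated data. No libraries were identical. Nothing in the labels pairs heifers.

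The 2 strands, the lists and the tests were chosen with earlier results of these data known. The other named miRNAs follow from a rule: the 4 other most abundant, the 5 with the highest r to each strand, the next pairs by strand ratio, and the listed markers. Names outside it (the other strand pairs, bta-miR-27b and the miRNAs most opposite to 5p) were chosen after their values were seen. Mature sequences were not used here.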

Additional observations from a re-analysis of the deposited data

Results flagged for a closer look

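Values of 11 measures were checked in each group for a heifer far from the other 6, by the gap to its nearest neighbour relative to the whole range. Of 22 groups of values, 5 stood out, all of them measures that use bta-miR-21-3p. Chance gives about 1 in 20 for roughly normal values, a rate that does not apply here, since with 6 of 7 FH heifers at 0 any count in the other one stands out. FH heifer 27 had 6.03 CPM of bta-miR-21-3p, or 77.0 reads per 1000000 reads of both strands, where every other FH heifer had 0, and its log2 ratio of 5p to 3p was 13.64 where the next was 17.32. SFH heifer 32 had 9.83 CPM and 112 reads per 1000000 reads of both strands, where the next SFH heifer had 2.92 CPM and 43.1 reads per 1000000. The 5 are not independent, as they come from 33 and 18 counts. The level of bta-miR-21-5p itself, as a share, after TMM normalization or relative to other miRNAs, had no such heifer in either group.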

How the results depend on the processing

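With 28 alternatives the log2 fold change of bta-miR-21-5p stayed without a call (p from 0.0892 to 0.924). It turned negative relative to bta-miR-142-5p (−0.17) and to bta-miR-223 (−0.038), and was 0.05 to 0.29 with each heifer left out. The number of miRNAs past the thresholds was 23 with limma-voom, 126 without a filter and 20 with every precursor entry, and 11 to 22 with each heifer left out (22 without FH heifer 24, 20 without SFH heifer 26). With each heifer left out, the difference in the share of bta-miR-21-3p was −2.47e-05 to 0.000193 percentage points, and the log2 ratio of its SDs was −0.30 to 0.40, both negative without SFH heifer 32. The ratio of SDs could not be given without FH heifer 27, as the other FH heifers are at 0. For the strand ratio it was 0.11 to 2.03, past the threshold without FH heifer 27 (2.03, exact permutation p = 0.000583, the smallest possible), since 3p is then 0 in all FH heifers. The correlation of the strands was 0.64 on CPM without logarithm (permutation p = 0.00879), where heifers 27 and 32 weigh most, and 0.38 to 0.58 with each heifer left out, past the threshold without SFH heifer 21 or 26. The strand ratio differed by −1.39 without FH heifer 27 and by −0.18 without SFH heifer 32. The other alternatives changed no sign and no call. The strand ratio without a pseudocount, and 3p with a covariate or in the filtered fits, gave no value. No paired analysis was possible because the heifer numbers differ between the groups. Depth limits all statements on bta-miR-21-3p, as no heifer has more than 33 counts, and left 5 other listed miRNAs with few counts untested.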

Other observations

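The miRNAs that ran most opposite to bta-miR-21-5p over the 14 heifers were named after their values were seen and carry no test. They were bta-miR-197 (r = −0.78, rho = −0.75), bta-let-7e (r = −0.71, rho = −0.51), bta-miR-296-5p (r = −0.70, rho = −0.63), bta-let-7c (r = −0.68, rho = −0.60) and bta-miR-342 (r = −0.68, rho = −0.72). bta-miR-342 and bta-miR-150, both of lymphocytes, lay on this side (r = −0.58 for bta-miR-150), as did bta-miR-223 of myeloid cells (r = −0.54), while bta-miR-181a, also of the lymphocyte list, had r = 0.01. For bta-miR-342 the value was −0.65 within FH and −0.74 within SFH. Levels within a library share 1 total, so that a rise of an abundant miRNA lowers the others, and the part of this in the values was not tested.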
